A study of Homo sapiens with 20 samples.

Results

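The kinases CLK1, CLK2, CLK3, CLK4, SRPK1, SRPK2 and DYRK1A, which phosphorylate splicing factors, were examined for exon skipping, junction reads and FUBP1 binding in HepG2, a human liver cancer cell line. Members were chosen by gene name from a fixed list of 7 genes. They held 14 of 19792 skipped exon events in the siFUBP1 table, 21 of 32990 in the U3 table and 7 of 7065 in the siFBL table, and all 7 genes were among the 28278 genes of the RIP table. The 42 listings were 24 distinct events in 6 genes, 5 of them in all 3 tables, and CLK2 had no listed event. For a test an event needed 10 or more junction reads per library on average, which 12, 21 and 6 of the events had.

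Polyadenylated RNA was sequenced 48 hours after siRNA transfection, with siCtrl2 as the control and siFUBP1 directed at FUBP1, and 72 hours after an antisense oligonucleotide (ASO) against GFP, the control, or against the small nucleolar RNA U3, with 3 libraries in each of these 4 groups. FUBP1 RNA immunoprecipitation (RIP) and input RNA were sequenced 48 hours after transfection of the control siCtrl or of siFBL, directed at FBL, with 2 libraries in each of the 4 groups. All are separate replicates by the labels, and p-values on junction reads measure the spread between them. The main test of exon inclusion uses a dispersion shared between events instead, and the RIP test uses the deposited standard errors. All groups were HepG2 cells with no other genetic change given in the labels, each target was depleted with 1 siRNA or 1 ASO design, and every result rests on that 1 cell line. FUBP1 is a nuclear RNA-binding protein that takes part in splice site recognition, and fibrillarin (FBL) is the enzyme that adds 2′-O-methyl groups to RNA at sites chosen by small nucleolar RNAs of the class to which U3 belongs.

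SR proteins are splicing factors whose arginine-serine repeats must be phosphorylated for them to enter the nucleus and to act on pre-mRNA. SRPK1 and SRPK2 work mainly in the cytoplasm and license nuclear import, while the CLK family adds further phosphates in the nucleus and releases SR proteins from nuclear speckles, and DYRK1A, a related nuclear kinase, also phosphorylates splicing factors. CLK1 and CLK4 regulate their own transcripts: an RNA that skips exon 4 loses the reading frame and the kinase domain, and a nuclear pool of CLK1 RNA keeps the introns on both sides of that exon until stress or inhibition of the kinase releases it.

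The exons on which the splicing results turn are shown in hg38 with the last 20 bases of the intron before them and the first 6 bases of the intron after them in lower case, and the exon in capitals. Exon 4 of CLK1 (chr2:200860125-200860215, minus strand), of CLK4 (chr5:178617344-178617434, minus strand) and of CLK3 (chr15:74622120-74622216, plus strand) is coding throughout in the GENCODE annotation. Its neighbours are joined without it in 1 annotated CLK1 transcript and 2 CLK4 transcripts, of which 1 per gene is marked for nonsense-mediated decay and none is protein-coding, and in 4 CLK3 transcripts, of which 2 are protein-coding.
CLK1 exon 4: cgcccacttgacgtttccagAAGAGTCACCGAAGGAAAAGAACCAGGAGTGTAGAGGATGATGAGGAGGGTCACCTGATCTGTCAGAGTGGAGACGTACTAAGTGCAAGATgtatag
CLK4 exon 4: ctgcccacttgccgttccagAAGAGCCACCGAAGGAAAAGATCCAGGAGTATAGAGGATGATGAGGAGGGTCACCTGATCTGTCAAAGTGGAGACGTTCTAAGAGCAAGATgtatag
CLK3 exon 4: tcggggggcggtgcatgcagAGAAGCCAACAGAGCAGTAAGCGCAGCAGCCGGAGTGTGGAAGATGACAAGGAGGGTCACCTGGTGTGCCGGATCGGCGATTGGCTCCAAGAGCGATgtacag
CLK1 and CLK4 shared 85 of 91 exon bases (93.4%), and an alignment of the last 50 intron bases was identical at 90.2% of positions. Against CLK3, exon 4 of CLK1 was identical at 64.6% of aligned positions. Both CLK1 and CLK4 exon 4 were followed by gtatag, a first intron hexamer that stood after 0.354% of the 31955 distinct exons listed in the 3 tables.

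A second set of exons is shown because the only kinase event with an unadjusted p under 0.05 lies in it. SRPK2 carries in tandem exon 15 (chr7:105126248-105126340, minus strand) and, between it and the last exon, an alternative exon of the same 93 bases in length (chr7:105125782-105125874, minus strand), and SRPK1 has a single exon 15 (chr6:35838337-35838429, minus strand). All 3 are coding throughout in at least 1 annotated protein-coding transcript, and their length keeps the reading frame.
SRPK2 exon 15: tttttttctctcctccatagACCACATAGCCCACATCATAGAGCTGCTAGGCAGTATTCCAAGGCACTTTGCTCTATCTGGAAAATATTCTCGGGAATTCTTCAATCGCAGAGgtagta
SRPK2 alternative exon: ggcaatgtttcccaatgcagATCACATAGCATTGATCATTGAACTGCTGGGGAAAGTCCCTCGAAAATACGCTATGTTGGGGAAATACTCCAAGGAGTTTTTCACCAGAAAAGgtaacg
SRPK1 exon 15: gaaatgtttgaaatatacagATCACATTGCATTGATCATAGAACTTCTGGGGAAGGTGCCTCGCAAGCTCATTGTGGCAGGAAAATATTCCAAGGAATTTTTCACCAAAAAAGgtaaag
The SRPK2 alternative exon was identical to SRPK1 exon 15 at 79.6% of bases, and SRPK2 exon 15 at 60.2%. The pair within SRPK2 shared 61.3%. Over all 23 distinct kinase exons the median length was 93 bases, against 117 over all listed exons, and 5 of 23 (21.7%) had a length that was a multiple of 3, against 41.5%. The last 50 intron bases before the kinase exons held a median of 42% T, against 38% before all exons, and G stood at the fifth intron base after 52.2% of them, against 75.2%.

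Junction reads in a library totalled 2693397 to 4474350 in the siFUBP1 table, 11249641 to 13321799 in the U3 table and 910779 to 1142189 in the siFBL table. Only reads at listed events are in these totals. FUBP1 itself fell in all 3 siFUBP1 libraries, from 45.2, 56.1 and 50.3 RPM in siCtrl2 to 8.42, 10.1 and 4.08, where RPM is junction reads scaled to a library total of 1000000. Under U3 depletion FUBP1 also fell, from 64.002, 58.7 and 56.9 to 43.4, 42.6 and 38.7 RPM. FBL did not reach a mean of 10 junction reads per library at listed events, and U3 has no exons that can be skipped. Neither depletion was therefore checked from junction reads, and FBL counts in the RIP data were not examined. The study measured both knockdowns by qPCR. The 9 hepatocyte markers, albumin among them, had mean counts of 3544 to 1132700 in the siCtrl RIP data, against 4.14 to 64.8 for 9 markers of blood, vessel, connective tissue and nerve cells.

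Exon inclusion of the kinases was compared first, to ask whether depletion of FUBP1, of U3 or of FBL changed which exons these genes used. The inclusion level is the share of junction reads, scaled by length, that include the exon. No kinase event was called at an adjusted p under 0.1 in the quasi-binomial test, in 0 of 12 tested events after siFUBP1, 0 of 21 after U3 ASO and 0 of 6 after siFBL, where the same test called 0.197%, 0.226% and 0% of all tested events. At an unadjusted p under 0.05 the kinases had 0, 1 and 0 events, against 4.59%, 4.13% and 2.25% of all events. Limma on log2 odds in place of this test called 0.0493%, 0% and 0% of all events (0.0370%, 0% and 0% with a variance trend), so that its count of 0 kinase events carries no information in the U3 and siFBL tables, and 0, 1 and 0 kinase events had an unadjusted p under 0.05. Reads varied more between libraries than binomial counting gives. The moderation gave each event the dispersion of events with a like product of reads, inclusion share and skipping share. An event's own spread therefore does not enter its p. Events with a product under 5 all took the value at the low end of that trend. The median event carried this value, 5.62, 7.02 and 9.49 in the 3 tables, so these medians are assigned values and not a measured spread. In the siFUBP1 and U3 tables most of these exons were constitutive, with a mean inclusion level above 0.95 in the control libraries for 8 of 12 and 14 of 21 tested events. Only 2 of 6 tested events had such a level in the siFBL table.

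CLK1 exon 4 was included in some CLK1 RNA and skipped in some in every library. After siFUBP1 its inclusion level was 0.837, 0.745 and 0.876, against 0.698, 0.891 and 0.486 in siCtrl2, a change of 0.128 ± 0.123 (SE, n = 3 per group) that was 0.025 without the third siCtrl2 library and 0.227 without the second. After U3 ASO it was 0.758, 0.545 and 0.639, against 0.733, 0.607 and 0.692 with GFP ASO, a change of -0.030 ± 0.072 (SE, n = 3 per group). After siFBL it was 0.620 and 0.903, against 0.592 and 0.681 in siCtrl input, a change of 0.125 ± 0.149 (SE, n = 2 per group). The groups overlapped in all 3 comparisons, and the adjusted p of the quasi-binomial test was 0.812, 0.846 and 0.875. An average of 77.3, 159.8 and 44 junction reads per library stood behind these levels, so a shift smaller than the spread between libraries could not be detected at this depth.

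CLK4 exon 4, the near-identical copy, had inclusion levels of 0.974, 0.621 and 0.733 after U3 ASO and of 0.256, 0.580 and 0.587 with GFP ASO. The groups did not overlap, and the means were 0.776 ± 0.1804 and 0.474 ± 0.189 (SD, n = 3), a difference that did not pass the test (adjusted p = 0.845, quasi-binomial with limma-moderated dispersion). Inclusion reads were 10, 20 and 16 with GFP ASO and 60, 95 and 75 with U3 ASO, and skipping reads 18, 9 and 7 against 1, 36 and 17. In the siFUBP1 table the same exon was included fully in 5 of 6 libraries and at 0.689 in the third siCtrl2 library. CLK3 exon 4 was included at 0.876 or more in every library of both tables that listed it.

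CLK1 exon 7 was the other kinase exon whose inclusion levels did not overlap under U3 depletion, with 0.797, 0.907 and 0.899 against 1.00, 0.9750 and 0.955 with GFP ASO. Its change of -0.109 ± 0.0375 (SE, n = 3 per group) had an adjusted p of 0.845 in the quasi-binomial test. In the siFUBP1 table the same exon was at 1.00 in every library but the third siCtrl2 library, at 0.962, a change of 0.013. An exact permutation test over the libraries gave the smallest p that 3 against 3 allows, 0.1, for both CLK1 exon 7 and CLK4 exon 4. Groups without overlap were found in 2 of 21 kinase events in the U3 table, against 6.18% of all events with a level in every library, in 0 of 12 in the siFUBP1 table, against 5.16%, and in 1 of 6 in the siFBL table, against 14.4%. That 1 event was exon 2 of DYRK1A, at 0.943 and 0.876 in siCtrl input and at 1.00 in both siFBL input libraries.

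The SRPK2 alternative exon had the smallest p of any kinase event. It was included at 0.235, 0.626 and 0.792 with GFP ASO and at 0.253, 0.023 and 0.135 with U3 ASO, a change of -0.414 ± 0.178 (SE, n = 3 per group, unadjusted p = 0.00134 and adjusted p = 0.343 in the quasi-binomial test). The groups overlapped, since the lowest GFP ASO library lay below the highest U3 ASO library, and the mean was 42.0 junction reads per library. SRPK2 exon 15, whose event shares a junction with it, ranged from 0.049 to 1.00 among the GFP ASO libraries and from 0.486 to 1.00 among the U3 ASO libraries. That event joins exon 15 to the alternative exon, so reads that join exon 15 to the last exon do not enter its level. Such reads numbered 7 in the GFP ASO library at 0.049. In the siFUBP1 table both exons fell short of the read minimum.

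**Figure D1:**
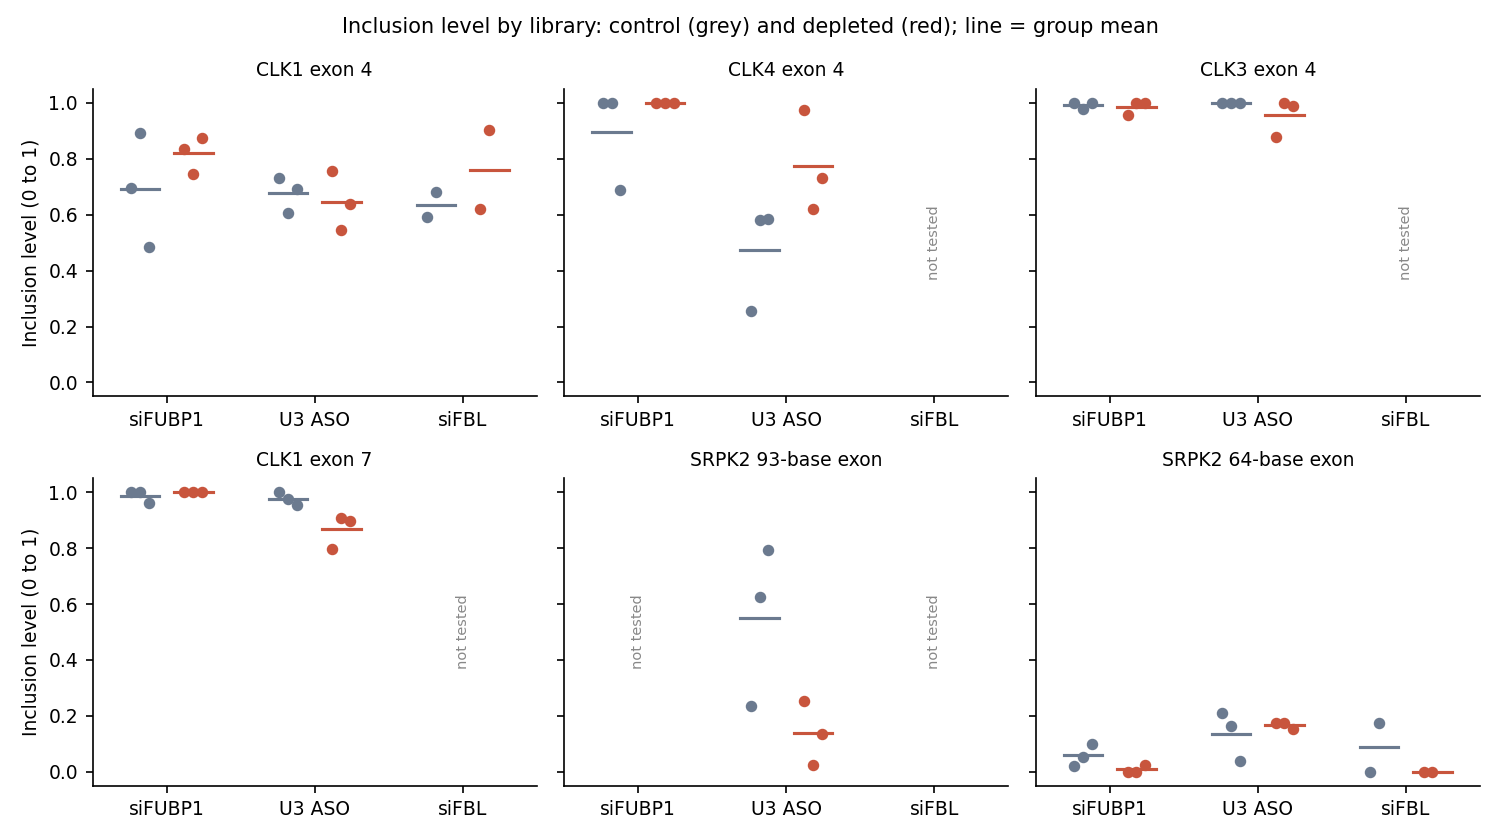
Inclusion level (0 to 1) of 6 kinase exons in each library of the siFUBP1, U3 and siFBL tables, with control libraries in grey, depleted libraries in red and the group mean as a line; an exon not listed or below the read minimum is marked as not tested. CLK4 exon 4 and CLK1 exon 7 show U3 ASO libraries apart from the GFP ASO libraries, while CLK1 exon 4 overlaps in all 3 comparisons.

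For the remaining exons no event had an unadjusted p under 0.05. CLK1 exon 10 was included at 0.996 or more in the U3 table, CLK3 exon 7 at 0.789 or more in both tables that listed it, and CLK4 exon 10 at 0.837 or more. DYRK1A exon 2, which is coding in part, was included at 0.865 or more in every library. A 64-base exon of SRPK2 was mostly skipped, at 0 to 0.210, and a 101-base exon of DYRK1A at 0 to 0.092, while SRPK2 exon 9 stood at 0.985 or more. SRPK1 exons 8, 10 and 13 were included at 0.968 or more in every library that listed them. Across the tested kinase events the median change was 0.0004 after siFUBP1, -0.006 after U3 ASO and -0.015 after siFBL, beside -0.001, -0.004 and -0.003 over all tested events.

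Junction reads summed over the listed events of a gene were compared next, since the 6 genes with events can be followed in each library in this way. They are given as RPM. They count spliced RNA at the listed exons, neighbouring events share junctions, and levels of different genes are not comparable. A change in the share of cells that make a transcript and a change in the RNA per cell cannot be told apart in bulk libraries.

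CLK1 rose after siFUBP1, from 26.6, 40.0 and 34.2 RPM in siCtrl2 to 80.6, 52.2 and 69.4. The groups did not overlap, and the log2 change was 0.99 ± 0.24 (SE, 95% interval 0.49 to 1.49, adjusted p = 0.0148 in limma). SRPK1 fell, from 402.9, 439.2 and 405.1 to 373.7, 314.0 and 247.3 RPM, by 0.43 ± 0.13 on the log2 scale (adjusted p = 0.0455 in limma), again without overlap. These 2 of 6 genes were called where limma called 12.2% of 6432 genes, 5.74% as higher and 6.48% as lower, and 25.8% of those genes had groups that did not overlap.

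The other genes did not pass the test after siFUBP1. CLK3 had 39.0, 37.1 and 33.5 RPM in siCtrl2 and 34.0, 22.0 and 21.9 in siFUBP1, a log2 change of -0.51 ± 0.28. CLK4, with 14 to 49 reads per library, had a log2 change of 0.20 with a 95% interval from -0.92 to 1.31. SRPK2 (log2 change -0.29 ± 0.23) and DYRK1A (0.09 ± 0.42) overlapped between the groups.

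Under U3 depletion CLK1 and CLK4 rose together. CLK1 went from 69.7, 102.2 and 95.001 RPM with GFP ASO to 170.0, 164.1 and 161.5 with U3 ASO (log2 change 0.91 ± 0.12, adjusted p = 7.26e-06 in limma). CLK4 went from 8.71, 10.3 and 7.89 to 21.4, 25.5 and 21.8 (log2 change 1.31 ± 0.24, adjusted p = 0.00021 in limma). Neither gene's groups overlapped. The median of all 8548 genes tested was itself 0.27 higher with U3 ASO on the log2 scale, and relative to that median CLK1 was 0.64 and CLK4 1.04 higher. With libraries scaled by the median of ratios the log2 changes were 0.66 for CLK1 and 1.07 for CLK4, and both genes stayed past the threshold.

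For the other kinases the direction or the call under U3 depletion turned on the scaling. CLK3 rose from 22.2, 25.002 and 19.9 to 30.5, 31.7 and 29.8 RPM (log2 change 0.45 ± 0.18, adjusted p = 0.0532 in limma), and was 0.21 higher with an adjusted p of 0.415 under median-of-ratios scaling. SRPK2 rose from 7.91, 8.01 and 11.8 to 17.9, 10.1 and 24.0 (log2 change 0.82 ± 0.31, adjusted p = 0.0409 in limma), with overlap between the groups and an adjusted p of 0.168 under that scaling. SRPK1 had 226.8, 254.4 and 267.0 RPM with GFP ASO and 241.2, 233.3 and 238.1 with U3 ASO. Its log2 change of -0.07 ± 0.08 was not called, but under median-of-ratios scaling it fell by 0.31 (adjusted p = 0.00453 in limma). DYRK1A had a log2 change of 0.15 ± 0.31, which turned to -0.09 under that scaling.

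Thus 4 of 6 kinase genes were called in the U3 table, all of them higher, where limma called 47.2% of all genes, 36.8% as higher and 10.4% as lower. Of the genes called, 78.0% were higher, and 48.9% were under median-of-ratios scaling. Without overlap between the groups were CLK1, CLK3 and CLK4, 3 of 6 kinase genes, against 49.5% of all genes.

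**Figure D2:**
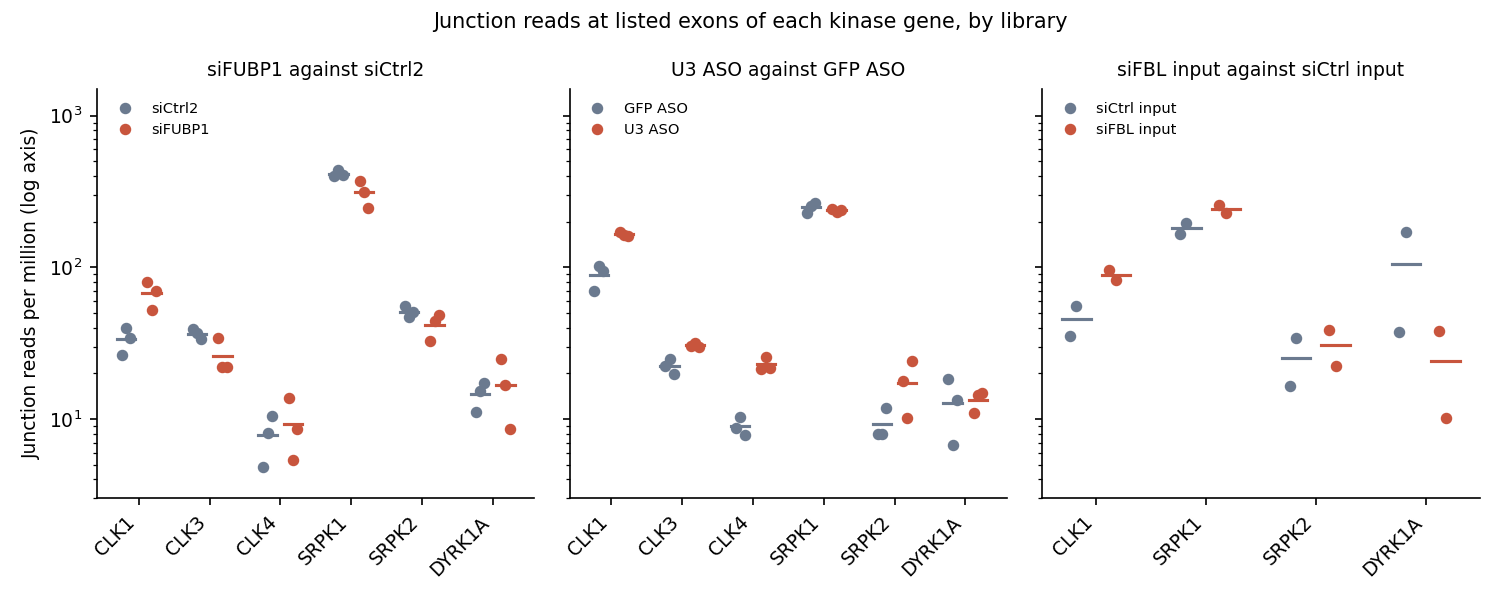
Junction reads scaled to a library total of 1000000 (RPM, log axis) at the listed exons of each kinase gene in every library of the 3 tables, with control libraries in grey, depleted libraries in red and group means as lines. CLK1 lies higher in all depleted libraries of each table, CLK4 in those of the U3 table, and SRPK1 lower in the siFUBP1 table.

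In the siFBL inputs, with 2 libraries per group, no kinase gene was called in limma and 1, DYRK1A, had an unadjusted p under 0.05. Limma called 3.64% of 3217 genes, 0.777% as higher and 2.86% as lower, so that 21.4% of its calls were higher, against 59.4% under median-of-ratios scaling. The median of all genes was -0.19. Groups without overlap were found for 2 of 4 kinase genes, CLK1 and SRPK1, against 43.7% of all genes, and the exact permutation test could not go below 0.333. CLK1 had 35.0 and 56.0 RPM in siCtrl input and 96.7 and 82.1 in siFBL input, a log2 change of 1.00 ± 0.49 with a 95% interval from -0.02 to 2.02 (adjusted p = 0.375 in limma). The log2 change of CLK1 was thus 0.99, 0.91 and 1.00 in 3 comparisons that share no library, and passed the test in 2 of them. These sizes rest on different sets of exons and on the scaling, and relative to the median gene of each table they were 1.04, 0.64 and 1.19. The first 2 come from polyadenylated RNA, 48 and 72 hours after treatment, while the study's methods describe no such selection for the siFBL inputs. At exon 4, the CLK1 exon listed in all 3 tables, the log2 change in RPM was 0.92 ± 0.31, 0.38 ± 0.23 and 0.67 ± 0.57, and limma called the first of these. SRPK1 had 167.2 and 195.4 against 256.5 and 229.0, a log2 change of 0.42 ± 0.29. DYRK1A had 37.6 and 172.4 RPM against 37.8 and 10.1, a log2 change of -2.01 ± 0.73 (adjusted p = 0.190 in limma), which was -0.92 without the second siCtrl input library and -1.08 without the second siFBL input library. CLK3 and CLK4 had no listed event there. SRPK2 had a log2 change of 0.30 ± 0.76.

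Reads at the single exons of CLK1 differed in how far they rose under U3 depletion. Exon 10 went from 12.7, 19.5 and 17.1 RPM to 34.3, 39.2 and 35.8, a log2 change of 1.14 ± 0.18, and exons 11 (1.20 ± 0.19) and 12 (1.16 ± 0.21) rose as much, each called by limma over all events. At exon 3 the log2 change was 0.65 ± 0.19 (adjusted p = 0.00929 in limma) and at exon 4 it was 0.38 ± 0.23 (adjusted p = 0.226 in limma), beside a median of 0.26 over all events. Between them and exon 10 lay exon 6 (0.63 ± 0.29, adjusted p = 0.104 in limma) and exon 7 (0.76 ± 0.30, adjusted p = 0.06005 in limma, called). Exon 8, counted in the form that joins it directly to exon 5, had 4.62, 6.13 and 4.09 RPM with GFP ASO and 4.43, 4.96 and 5.40 with U3 ASO. The exon 3 event likewise joins exon 3 to exon 5 without exon 4, and the exon 6 event joins exon 6 to exon 8 without exon 7. Each of these events also counts an ordinary junction on the other side of its exon. With GFP ASO the junction of exon 3 to exon 5 held 21, 37 and 37 reads, beside 147, 205 and 200 inclusion reads at exon 3. The junction of exon 6 to exon 8 held 0, 1 and 3, beside 68, 80 and 72 at exon 6. Most reads at exons 3 and 6 thus came from the ordinary junction. Exons 4, 7, 10, 11 and 12 were counted with their ordinary neighbours, so these changes do not all describe the same mix of transcript forms.

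The contrast between both ends of CLK1 did not pass its own test. Exon 3 was counted in the event that leaves out exon 4, and exon 12 with its ordinary neighbours. Most exon 3 reads came from its ordinary junction with exon 2. With U3 ASO the junction without exon 4 held 24, 55 and 62 reads, beside 284, 269 and 304 inclusion reads at exon 3. Position and transcript form are therefore not fully separated in this contrast. The ratio of reads at exon 12 to reads at exon 3 was 0.675, 1.00 and 0.935 with GFP ASO and 1.37, 1.25 and 1.11 with U3 ASO. These values did not overlap, but the log2 change in the ratio, 0.53 ± 0.23, had an adjusted p of 0.617 in limma over 6055 genes with at least 2 tested exons, of which 0.0330% were called as higher, and the median gene was at 0.08. The order was the other way in CLK4, with log2 changes of 1.58 ± 0.38 at exon 4, 1.46 ± 0.42 at exon 7 and 0.86 ± 0.31 at exon 10, each called by limma, and its ratio of exon 10 to exon 4 had an adjusted p of 0.714 in limma. Of all events, 26.2% were called as higher in this way. In the siFUBP1 table, where 3.01% of events were called as higher, CLK1 exon 7 (1.03 ± 0.29) and exon 4 (0.92 ± 0.31) were both called. No kinase event was called in this way in the siFBL table, where 1.21% of events were called as higher, and in both the siFUBP1 and siFBL data 0% of genes were called as higher on the ratio of last to first exon.

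**Figure D3:**
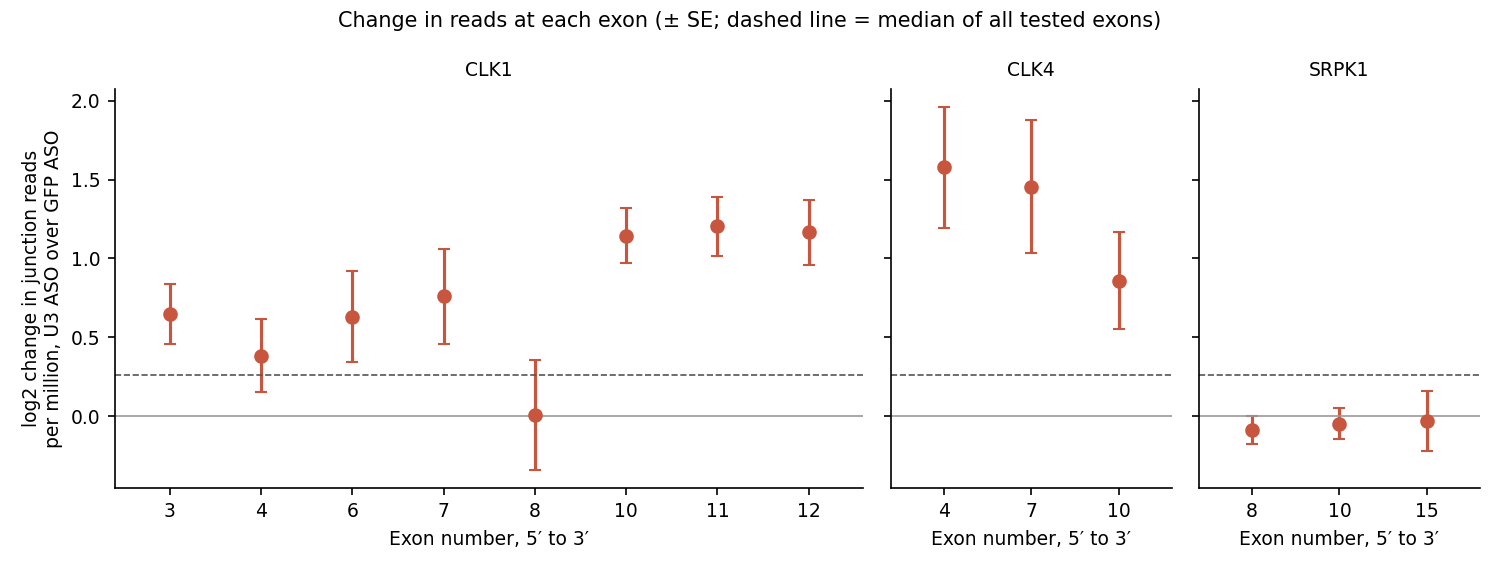
The log2 change in RPM at each tested exon of CLK1, CLK4 and SRPK1, U3 ASO over GFP ASO, in the order of transcription (points with SE bars, 3 libraries per group); the dashed line is the median of all tested events, 0.26. CLK1 exons 10 to 12 lie above exons 3 to 8, CLK4 lies above the line throughout, and SRPK1 lies near 0. CLK1 exons 3, 6 and 8 are counted in events that leave out neighbouring exons.

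FUBP1 binding was read from the RIP data, to ask whether depletion of FBL changed how much kinase RNA was recovered with FUBP1 relative to input. Enrichment is the log2 ratio of RIP over input, as deposited for each condition with its standard error, and values per library were not analysed here. CLK1 and CLK4 RNA were the most enriched of the 7. In siCtrl cells CLK4 stood at 2.92 ± 0.16 (SE), 7.58-fold over input, and CLK1 at 2.79 ± 0.12, 6.90-fold, above 92.7% and 91.3% of the 14242 genes kept, whose median was 0.08. DYRK1A followed at 1.63 ± 0.08, SRPK2 at 1.36 ± 0.11 and SRPK1 at 0.97 ± 0.07, and CLK3 (-0.08 ± 0.16) and CLK2 (-0.45 ± 0.41) were not enriched beyond their error.

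Neighbours in this order were not all distinct. The 95% intervals of CLK4 (2.62 to 3.23) and CLK1 (2.54 to 3.03) overlapped, as did those of DYRK1A (1.48 to 1.78) and SRPK2 (1.15 to 1.57), and those of CLK3 (-0.40 to 0.24) and CLK2 (-1.25 to 0.36). The intervals of CLK1 and DYRK1A did not overlap, nor did those of SRPK2 and SRPK1 (0.84 to 1.10). CLK3 lay near the median gene.

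After siFBL the enrichment of CLK1 fell to 2.29 ± 0.10, 4.90-fold over input, a difference of -0.49 ± 0.16 (SE, 95% interval -0.81 to -0.18, adjusted p = 0.0272 in a z test on the DESeq2 estimates). CLK1 was the only 1 of the 7 kinases called, where 12.0% of all genes kept were called and 6.64% as lower. The input libraries are the denominator of this enrichment. In them CLK1 junction reads were 35.0 and 56.0 RPM in siCtrl input and 96.7 and 82.1 RPM in siFBL input. A change in input and a change in RNA recovered with FUBP1 cannot be told apart from the ratio alone. CLK4 went to 2.48 ± 0.12, a difference of -0.44 ± 0.20 with a 95% interval from -0.83 to -0.06 and an adjusted p of 0.162 in the same z test on the DESeq2 estimates, so its difference was nearly as large but not called. The remaining 5 kinases differed by -0.07 ± 0.09 (SRPK1), -0.06 ± 0.14 (SRPK2), -0.03 ± 0.23 (CLK3), 0.03 ± 0.13 (DYRK1A) and 0.64 ± 0.79 (CLK2), and none was called.

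Falls of this size were seen in other strongly enriched genes. Over the 824 genes with a siCtrl enrichment between 2.5 and 3.1, a window set after the values of CLK1 and CLK4 were seen, the median difference was -0.32, 85.3% were lower in siFBL and 29.0% had a difference at or below that of CLK1, against a median of -0.002 over all genes. In this window 27.1% of genes were called as lower. The siCtrl estimate enters both the window and the difference, and how far that moves these values was not tested.

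**Figure D4:**
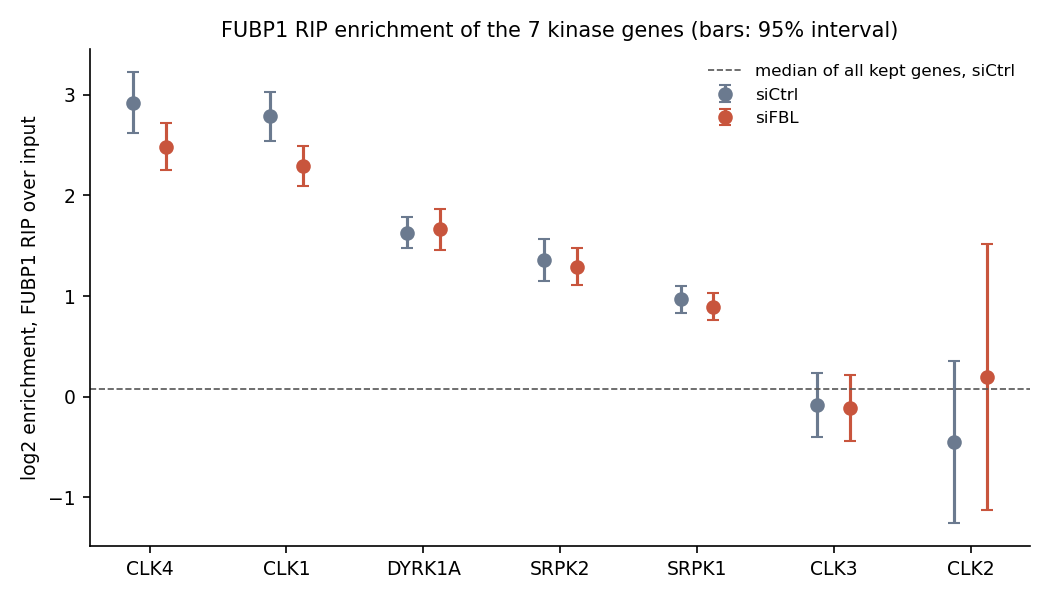
The log2 enrichment of FUBP1 RIP over input for the 7 kinase genes in siCtrl (grey) and siFBL (red) cells, with 95% intervals; the dashed line is the median of all genes kept in siCtrl, 0.08. CLK4 and CLK1 lie highest in both conditions and lower in siFBL than in siCtrl; the intervals of CLK1 do not overlap between conditions, while those of CLK4 and of the other genes do.

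The substrates and the partners of the kinases were followed through lists of 14 SR proteins and of 19 related kinases, phosphatases and a nuclear importer. In junction reads after siFUBP1, 0 of 9 measured SR proteins rose and 2 fell, SRSF4 by 0.52 ± 0.15 and TRA2A by 0.67 ± 0.17 on the log2 scale, where limma called 5.74% of all genes as higher and 6.48% as lower, and the list median was -0.11 against -0.05 over all genes. Of 14 related genes 2 rose, the homeodomain-interacting kinase HIPK3 (0.55 ± 0.16) and the catalytic phosphatase subunit PPP1CB (0.38 ± 0.11), and 1 fell, its sister subunit PPP1CA (-0.65 ± 0.16), with a list median of 0.20.

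After U3 ASO 3 of 11 SR proteins rose, SRSF11 (0.17 ± 0.07), SRSF12 (1.76 ± 0.63) and TRA2A (0.36 ± 0.10), and TRA2B fell by 0.20 ± 0.06 on the log2 scale, with a list median of 0.03 against 0.27 over all genes. Of all genes 36.8% were called as higher and 10.4% as lower, both above the shares of higher and lower calls among the SR proteins. SRSF12 had few reads, with means of 0.206 and 1.98 RPM. Of 16 related genes 3 rose, the transcriptional kinases CDK11B (0.57 ± 0.17) and CDK12 (0.17 ± 0.08) and TNPO3, which imports SR proteins into the nucleus (0.36 ± 0.13), again a smaller share than over all genes, with a list median of 0.09. Under median-of-ratios scaling SRSF12 (1.64) and TRA2B (-0.45) kept their calls, SRSF11 and CDK12 turned to -0.08, and TRA2A, CDK11B and TNPO3 lost their calls at 0.11, 0.33 and 0.11. In the siFBL inputs 0 of 8 genes of either list were called in limma, where 3.64% of all genes were, 2 SR protein genes and 0 related genes had an unadjusted p under 0.05, and the list medians were -0.53 and -0.25 against -0.19 over all genes.

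Under U3 depletion the quasi-binomial test called 3 of 35 tested exon events of the SR proteins, against 0.226% of all, and 8 had an unadjusted p under 0.05, against 4.13% of all. They lay in SRSF2 (chr17:76735772-76735875), SRSF3 (chr6:36599821-36600276) and SRSF6 (chr20:43459153-43459420), and inclusion rose from 0.074 ± 0.016 to 0.154 ± 0.008, from 0.041 ± 0.020 to 0.188 ± 0.004 and from 0.089 ± 0.019 to 0.271 ± 0.010 (SD, n = 3). None of the 3 was called by limma on log2 odds, which uses the spread of each event and called 0% of all events in this table (unadjusted p = 0.236, 0.0250 and 0.0652 in that order, adjusted p from 0.672 to 0.863). Each of these genes encodes an SR protein that binds exonic enhancers. After siFUBP1 the quasi-binomial test called 0 of 24 SR protein events and 0 of 33 related ones, with 4 and 0 at an unadjusted p under 0.05, where 0.197% of all events were called and 4.59% were under that p. After siFBL it called 0 of 11 and 0 of 14, with 0 and 0 at that p, against 0% and 2.25% of all events. It called 0 of 45 related events under U3 depletion, with 1 at that p.

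In the RIP data 13 of 14 SR protein genes were enriched above 0 in siCtrl, against 51.2% of all genes, with a list median of 2.15 beside 1.36 for the kinases and 0.08 over all genes. After siFBL 3 of them fell, SRSF1 (-0.28 ± 0.09), SRSF2 (-0.27 ± 0.10) and SRSF8 (-0.63 ± 0.15), and SRSF4 rose (0.31 ± 0.10), where 6.64% of all genes were called as lower and 5.36% as higher. Of 18 related genes 4 fell, DYRK2 (-0.42 ± 0.16), HIPK2 (-0.40 ± 0.05), HIPK3 (-0.40 ± 0.08) and PPP1CB (-0.49 ± 0.09), and the phosphatase PPM1G rose (0.37 ± 0.10). Among the 824 genes with a siCtrl enrichment between 2.5 and 3.1, 27.1% were called as lower. SRSF1, DYRK2, HIPK2, HIPK3 and PPP1CB lay in that window, while SRSF2 (2.13) and SRSF8 (3.44) lay outside it. The list medians of the difference were -0.10 for SR proteins, -0.14 for related genes and -0.06 for the kinases.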

How the data were processed

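Per the labels and the study's methods, reads had been trimmed with Cutadapt and aligned to hg38 with HISAT2 by the authors. Versions and the annotation release are not given in the sources used here. Events came from rMATS, in the form that counts junction reads only. The deposited tables gave inclusion and skipping reads as whole-number lists, 1 value per library and not normalized. Positions in the lists carry no library number, and libraries are given in list order. Another 6 columns of inclusion levels were not used. Columns holding the authors' p-values, FDR, inclusion differences and test statistics were not used.

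For RIP, the deposited log2 fold changes of RIP over input, their standard errors and the mean normalized counts (treated as a score) had been computed by the authors with DESeq2 in each condition, and that table was used here without values per library. The study's methods and the submitters' processing notes name different tools for counting reads per gene (HTSeq and featureCounts).

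Inclusion levels were computed from the lists, and events with 10 or more reads per library on average and reads in each group and in more than 2 libraries were tested with a quasi-binomial F test, with dispersion moderated by limma 3.58.1 in R 4.3.3 from events in which reads times inclusion share times skipping share came to at least 5. Junction reads per gene, and later per event, were divided by the library's total and scaled to 1000000 (RPM), and log2(RPM + 0.5) was fitted with limma with a variance trend, so that fold changes of low genes are understated. The RIP difference was divided by the root of the summed squared errors and read as a two-sided z. It covered 14242 genes with mean counts of at least 10 and an enrichment other than exactly 0 in both conditions. This z treats the conditions as independent. P-values were adjusted over all features by the Benjamini-Hochberg procedure, and an adjusted p under 0.1 was called. Exact permutation tests were two-sided. The tests of events and of junction reads were tried on simulated data in which all events of a table, and all genes, shared a single dispersion. How the p-values hold where events differ in spread was not tested.

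Exons were annotated with GENCODE release 44 on hg38, which listed 95.9% to 96.4% of the exons of a table, and coordinates count from 1. The members and lists were chosen with earlier results of these data known. By rule, all 7 genes are named, with each event at an adjusted p under 0.1 or an unadjusted p under 0.05 and the event with the most reads per gene and table; exons so named are given in every table. Of the pathway lists, called genes are named. CLK3 exon 4, SRPK2 exon 15, SRPK1 exon 13, the DYRK1A exon of 101 bases and the reads of single CLK1 and CLK4 exons were added after their values were seen. Libraries of a group are replicates by the labels. No molecular identifiers are mentioned for the RNA-seq and RIP libraries, so their reads may include copies of 1 molecule.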

Additional observations from a re-analysis of the deposited data

How the results depend on the processing

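The count of called kinase events stayed at 0 in all 3 tables under other read minimums, inclusion shares without length scaling and with any 1 library left out. It was also 0 under limma on log2 odds with and without a trend, which called 8 and 6 of all events in the siFUBP1 table and 0 in the others, so that no kinase call could have been seen there. The called SRSF2, SRSF3 and SRSF6 events under U3 depletion were lost in that test. For junction reads, the count of called kinase genes after siFUBP1 ranged from 1 to 2 with a library left out and was 1 with each event tested on its own, an alternative added after the data were seen. SRPK1 lost its call without the 2nd (adjusted p = 0.134 in limma) or 3rd (0.100) siCtrl2 library or the 3rd siFUBP1 library (0.205, log2 change -0.28). CLK1 kept its call without any 1 library, with log2 changes of 0.83 to 1.16. After U3 ASO the count ranged from 2 to 4 with a library left out, and was 3 with median-of-ratios scaling and 2 with the event with the most reads only or with each event tested on its own. CLK1 (0.74 to 1.02) and CLK4 (1.23 to 1.41) kept their calls without any 1 library, while CLK3 lost its call without the 3rd GFP ASO library or any 1 U3 ASO library (adjusted p from 0.102 to 0.142 in limma) and SRPK2 without the 1st (0.126) or 3rd (0.243) U3 ASO library. Median-of-ratios scaling turned DYRK1A to -0.086. After siFBL the count was 0 to 1, with DYRK1A called without the first siCtrl input library (log2 change -3.10, adjusted p = 0.0290 in limma) and with no filter on reads, where the count was 1. The fall of CLK1 in the RIP data kept its call under a minimum count of 50, no minimum and centring. In those fits the adjusted p ran from 0.0226 to 0.0336.

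Leaving out 1 library reversed 12 values, none of them called: for junction reads, CLK4 and DYRK1A after siFUBP1 (-0.13 to 0.51 and -0.26 to 0.49), DYRK1A after U3 ASO (-0.23 to 0.46) and SRPK2 after siFBL (-0.20 to 0.81), and for inclusion, CLK4 exon 10 (-0.0225 to 0.0590), the 64-base SRPK2 exon (-0.0196 to 0.0670) and CLK1 exon 4 (-0.0854 to 0.0211) after U3 ASO, and CLK1 exon 4 (-0.0168 to 0.267) and SRPK1 exon 10 (-0.0270 to 0.00521) after siFBL. No paired analysis was possible because the lists of reads carry no replicate number and the RIP table holds no values per library. Where a group kept 1 library, that library was assumed to vary like the others. Depth limits the siFBL table most, where CLK1 exon 4 rests on 44 reads per library.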
